A study of Mus musculus with 2 samples.

Results

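The Clcn5 intron miRNA cluster is a group of 5 microRNA (miRNA) genes, Mir532, Mir188, Mir362, Mir501 and Mir500, on the mouse X chromosome. Its members were chosen by gene name from the 1973 miRNA genes counted in the series, and all 5 were found in both libraries. The data are microRNA-seq of the RNA fraction under 30 nt from whole lung of B6NCrl mouse embryos of 14.5 days (E14.5), when the airways branch. There are 2 libraries, biological replicates 1 and 2, which form 1 group without a stated treatment or altered allele. The labels describe each as a single lung of 1 pup but give the sex as pooled male and female, so the number of embryos behind a library is not known here. The labels give each replicate its own collection day, which cannot be told apart from the replicate itself, and differences between the libraries are not differences between conditions.

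An miRNA gene is transcribed as part of a longer RNA, from which a hairpin is cut out and then trimmed to mature strands of about the length read here. Bases 2 to 8 of a mature strand, the seed, do most of the pairing with target messenger RNAs, so miRNAs with the same seed can share targets. Clcn5, the host gene, encodes ClC-5, an exchanger of chloride and protons in endosomal membranes that is best known from the kidney tubule, where its loss causes Dent disease. Intronic miRNAs on the strand of their host can be cut from the host's transcript, and neighbours in a cluster can come from 1 precursor. Of the members, miR-188 is known for the switch of bone marrow stromal cells between bone and fat, and miR-501 for muscle progenitor cells. For miR-362, miR-500 and miR-532 most published work concerns tumours.

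The hairpins are shown first because the reads are counted per hairpin. They are given 5′ to 3′ as RefSeq lists them for build GRCm38.p6, in the order of transcription, and capitals mark the mature strands in the RefSeq table, which for Mir532 is the 3p strand.
Mir532: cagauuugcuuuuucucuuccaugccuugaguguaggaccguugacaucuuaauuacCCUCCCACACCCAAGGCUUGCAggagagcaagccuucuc
Mir188: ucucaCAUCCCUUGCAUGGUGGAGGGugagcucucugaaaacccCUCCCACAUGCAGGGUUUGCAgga
Mir362: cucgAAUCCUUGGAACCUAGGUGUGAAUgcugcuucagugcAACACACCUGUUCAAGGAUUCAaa
Mir501: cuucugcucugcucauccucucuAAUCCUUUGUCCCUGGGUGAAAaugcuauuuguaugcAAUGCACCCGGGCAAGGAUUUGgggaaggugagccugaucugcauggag
Mir500: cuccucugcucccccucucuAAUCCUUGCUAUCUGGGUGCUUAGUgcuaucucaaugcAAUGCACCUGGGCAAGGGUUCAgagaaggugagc

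Clcn5 lies on the minus strand of chromosome X (7153810 to 7319358 in mm10, GENCODE M21), and all 5 hairpins lie on the same strand. Mir532 occupies 7248402 to 7248497, Mir188 7247989 to 7248056, Mir362 7241982 to 7242046, Mir501 7241243 to 7241351 and Mir500 7237683 to 7237774. None overlaps an annotated Clcn5 exon. Of 5 annotated Clcn5 transcripts, 3 hold the whole cluster in 1 intron of 103648 bp. The other 2 start downstream of it and do not contain it. The cluster spans 10815 bp and begins 70861 bp downstream of the outermost annotated Clcn5 start. No further miRNA gene (0) is annotated inside Clcn5 or within 10 kb of a member. The cluster falls into a close pair, Mir532 and Mir188, which are 345 bp apart, and 3 hairpins further downstream. A gap of 5942 bp separates Mir188 from Mir362, which is followed by Mir501 after 630 bp and by Mir500 after another 3468 bp.

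The mature strands show which members could share targets, as far as the 9 strands compared go, which for Mir532 is the 3p strand alone. The RefSeq table used has no entry for miR-532-5p, so its seed was not compared. They are printed 5′ to 3′ with the seed in capitals, the 5p strands first.
mmu-miR-188-5p: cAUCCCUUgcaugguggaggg
mmu-miR-362-5p: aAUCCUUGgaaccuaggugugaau
mmu-miR-501-5p: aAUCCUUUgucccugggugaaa
mmu-miR-500-5p: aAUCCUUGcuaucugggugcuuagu
mmu-miR-532-3p: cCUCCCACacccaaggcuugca
mmu-miR-188-3p: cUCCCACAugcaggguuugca
mmu-miR-362-3p: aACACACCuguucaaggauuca
mmu-miR-501-3p: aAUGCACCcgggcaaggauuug
mmu-miR-500-3p: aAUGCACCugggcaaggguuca
These 9 strands held 7 different seeds. The seed AUCCUUG was shared by miR-362-5p and miR-500-5p, and AUGCACC by miR-501-3p and miR-500-3p. Among the 1679 mouse mature names in the RefSeq table neither seed occurred outside the cluster.

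Some other seeds differed by few bases. Positions are counted from 1 at the 5′ end of the strand named first. The seeds of miR-362-5p and miR-501-5p differed by G8U alone, and those of miR-188-5p and miR-501-5p by C6U alone. Between miR-362-3p and the shared seed of miR-500-3p and miR-501-3p the differences were C3U and A4G. The 3p strands of Mir188 and Mir532 shared the run CUCCCACA, which starts at base 1 in miR-188-3p and at base 2 in miR-532-3p, so the same letters fall into the seed shifted by 1 base, and read position by position these seeds differed at 5 bases. Against the 3p seeds of Mir362, Mir501 and Mir500, that of miR-188-3p differed at 3 or 4 bases and that of miR-532-3p at 4 or 5. Outside the cluster, the seed of miR-362-3p was also that of miR-329-3p, and the seed of miR-188-5p that of miR-7061-3p. Of these genes only Mir329, a miRNA of the imprinted Dlk1-Dio3 locus, reached 10 counts or more in each library, with 2030 counts in replicate 1 and 884 in replicate 2.

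Mir501 and Mir500 were the most alike of the hairpins, with 67.3% identity over 110 aligned positions. The other 9 pairs lay between 43.1% (Mir362 with Mir501) and 54.3% (Mir362 with Mir500). The longest stretch shared with any other miRNA hairpin was 14 nt, between Mir501 and Mir500, and it was 11 or 12 nt for the remaining members. Hence 0 of 5 members share 20 nt with another annotated hairpin, against 907 of 1894 hairpins (47.9%) in the annotation as a whole. This bears on the counts because reads that map to several places were assigned to no gene (32.9% of reads in replicate 1, 33.1% in replicate 2). Exact sharing of 20 nt does not cover shorter reads or alignments with mismatches. The 3p strands of Mir501 and Mir500 were identical at 18 of 22 aligned positions. Copies elsewhere in the genome were not searched for.

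Replicate 1 held 5128214 counts on the strand of a miRNA gene and replicate 2 2332032. Levels are counts per 1000000 of these (CPM). They are not divided by gene length, since a read stands for a mature strand of similar length in every gene. How readily each strand was captured was not measured, so ranks between genes are ranks of reads, and the counts do not separate the 5p from the 3p strand. The tissue label was checked against miRNAs of lung cell types: all 5 epithelial miR-200 genes (33294 and 33730 CPM in sum), the endothelial Mir126a (76033 and 58438 CPM) and both smooth muscle genes (79791 and 62023 CPM in sum) were high in both libraries. The neuronal list stood at 0.195 and 0.429 CPM, with all 3 Mir124a genes and Mir9-2 at 0. This low value cannot check the label, because reads that map to several places were assigned to no gene. Which marker genes lose reads in this way was not examined. The cardiac and striated muscle list summed to 368 CPM in replicate 1 but to 56.2 CPM in replicate 2. Most of that gap was Mir208a (299 and 11.6 CPM), without which the list summed to 69.4 and 44.6 CPM, while Mir206 went the other way (6.24 and 12.9 CPM). Of the 8 genes of this list in the series, 4 reached 10 counts in each library. Mir133a-1 and Mir133a-2 were at 0, which does not show absence, since reads mapping to several places were not counted.

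The cluster as a whole took a nearly equal share of counts in both libraries. Its 5 members together had 16345 counts in replicate 1, which is 3187 CPM, and 7436 counts in replicate 2, which is 3189 CPM. That is 0.319% of all counts in each library, with exact (Clopper-Pearson) 95% binomial intervals of 0.314% to 0.324% and 0.312% to 0.326%. Intervals here and below cover only counting error and treat reads as independent. Reads copied by PCR may stem from the same molecule, so the intervals may be too narrow even for that. All 5 members were well above the detection floor of 3 counts (0.585 CPM in replicate 1, 1.29 CPM in replicate 2), and all 5 were among the 320 genes that reached 10 counts in each library. No read (0) fell on the opposite strand of any member in either library, out of 150350 and 67687 opposite-strand counts over all genes. In a whole tissue, fewer expressing cells and less RNA per cell cannot be told apart.

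Mir532, the first hairpin of the cluster, was its most abundant member. It had 6973 counts (1360 CPM, exact interval 1328 to 1392) in replicate 1 and 3078 counts (1320 CPM, 1274 to 1367) in replicate 2, a mean of 1340 ± 28.2 CPM (SD, n = 2). This placed it at rank 91 of 1973 genes in replicate 1 and rank 89 in replicate 2.

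Mir188, its neighbour, followed closely. It had 5989 counts (1168 CPM, 1138 to 1198) in replicate 1 and 2550 counts (1093 CPM, 1051 to 1137) in replicate 2, with a mean of 1131 ± 52.6 CPM (SD, n = 2). The values of Mir532 and Mir188 did not overlap across the libraries, and Mir532 was the higher in both.

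Mir501 held the middle place. It had 1753 counts (342 CPM, 326 to 358) in replicate 1 and 885 counts (379 CPM, 355 to 405) in replicate 2, a mean of 361 ± 26.6 CPM (SD, n = 2). It was above Mir362 and Mir500 and below Mir188 in both libraries, without overlap.

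Mir362 and Mir500 were the least abundant members. Mir362 had 736 counts (144 CPM, 133 to 154) in replicate 1 and 552 counts (237 CPM, 217 to 257) in replicate 2, with a mean of 190 ± 65.9 CPM (SD, n = 2). Mir500 had 894 counts (174 CPM, 163 to 186) in replicate 1 and 371 counts (159 CPM, 143 to 176) in replicate 2, a mean of 167 ± 10.8 CPM (SD, n = 2). Both values of Mir500 lay between those of Mir362, so the order of these 2 genes was not settled: Mir500 was the higher in replicate 1 and Mir362 in replicate 2. The SD over the mean was 34.7% for Mir362 and between 2.10% (Mir532) and 7.38% (Mir501) for the other members.

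**Figure D1:**
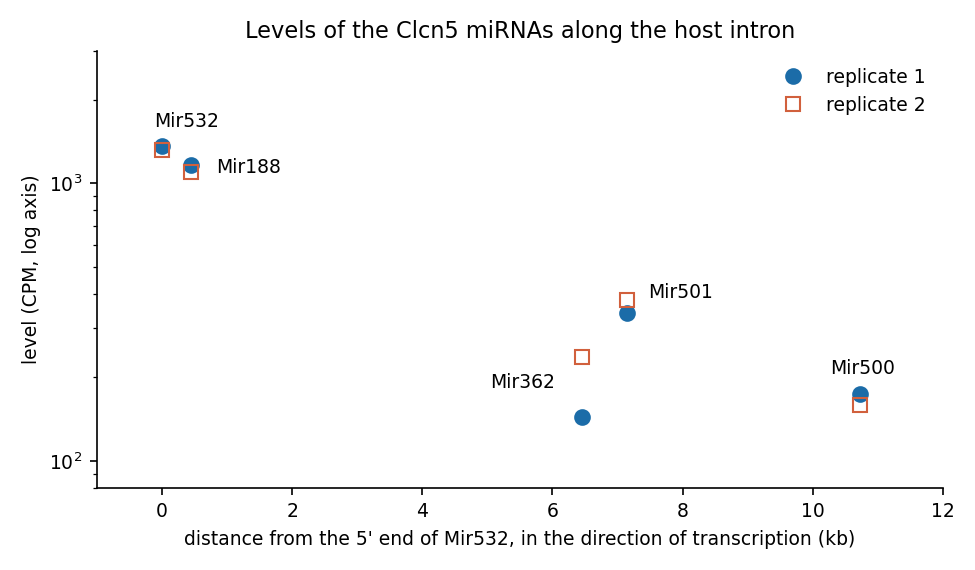
Level of each Clcn5 miRNA in each library (CPM, log axis) against the distance of its 5′ end from that of Mir532 in the direction of transcription (kb). Filled circles are replicate 1 and open squares replicate 2. Mir532 and Mir188 stand at 1093 CPM or more in both libraries and the 3 downstream genes at 379 CPM or less, and the points of Mir362 lie farthest apart.

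Levels followed the position of the hairpins only in part. The upstream pair of Mir532 and Mir188 held 79.3% of the cluster's counts in replicate 1 (exact 95% binomial interval 78.7% to 79.9%) and 75.7% in replicate 2 (74.7% to 76.7%). It thus exceeded the 3 downstream genes together by 3.83-fold and 3.11-fold. Within the downstream group the level did not fall with distance, since Mir501 was higher than Mir362, which precedes it.

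Mir532 took 42.7% of the cluster's counts in replicate 1 and 41.4% in replicate 2, and Mir188 took 36.6% and 34.3%. Mir501 held 10.7% and 11.9%, and Mir500 5.47% and 4.99%. The share of Mir362 was 4.50% (4.19% to 4.83%) in replicate 1 and 7.42% (6.84% to 8.04%) in replicate 2. For Mir188 and Mir362 the intervals of the 2 libraries lay apart, with Mir188 lower and Mir362 higher in replicate 2, and for Mir532, Mir501 and Mir500 they overlapped. Shares within the cluster depend on each other, so a higher share of Mir362 lowers those of the rest. The count ratios of Mir188 to Mir532 and to Mir500 had intervals that overlapped between the libraries, while those to Mir362 and Mir501 did not.

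**Figure D2:**
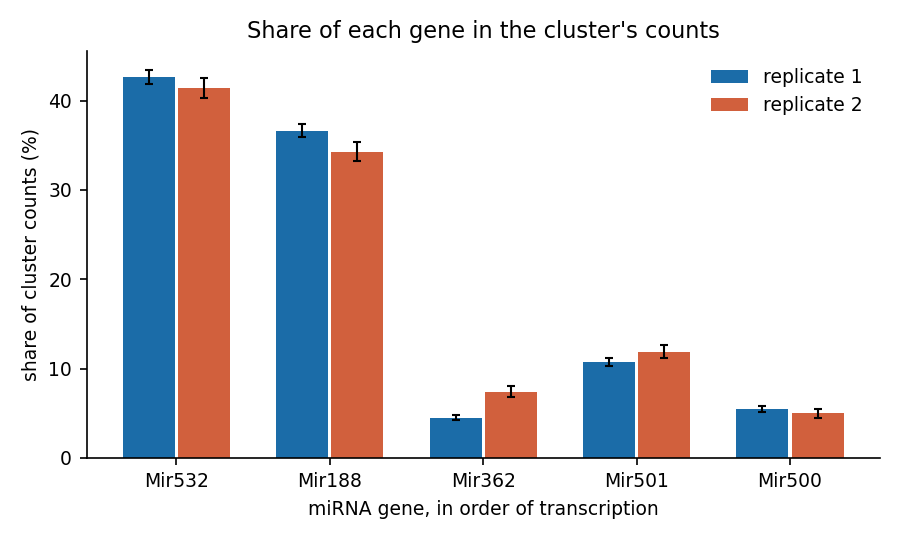
Share of each gene in the summed counts of the cluster (%), by library, with exact 95% binomial intervals as error bars (counting error only). Mir532 and Mir188 are the tall bars in both libraries, and Mir362 has the share that differs most in proportion, 4.50% in replicate 1 against 7.42% in replicate 2.

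Ratios between members need no scaling between libraries, and the neighbours were compared this way. Mir532 exceeded Mir188 by 1.16-fold in replicate 1 (exact 95% interval 1.12 to 1.21) and 1.21-fold in replicate 2 (1.14 to 1.27), a log2 ratio of 0.25 ± 0.04 (SD, n = 2). Mir501 exceeded Mir500, the hairpin most like it in sequence, by 1.96-fold (1.81 to 2.13) and 2.39-fold (2.11 to 2.70), a log2 ratio of 1.11 ± 0.20. For both of these neighbour pairs the intervals of the libraries overlapped.

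The neighbour pairs that contain Mir362 repeated less closely. Mir188 exceeded Mir362 by 8.14-fold (7.54 to 8.80) in replicate 1 and 4.62-fold (4.21 to 5.07) in replicate 2. Mir362 stood at 0.420 times the level of Mir501, its neighbour at 630 bp, in replicate 1 (0.385 to 0.458) and at 0.624 times in replicate 2 (0.560 to 0.694). Against Mir500, with which its 5p strand shares the seed, Mir362 stood at 0.823 times (0.746 to 0.909) and 1.49 times (1.30 to 1.70), the only 1 of the 10 pairs whose order turned between the libraries.

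Over all 10 pairs the intervals of the libraries overlapped in 4 and lay apart in 6. All 4 pairs with Mir362 were among the 6. The other 2 were the pairs of Mir501 with Mir532 (3.98-fold and 3.48-fold lower than Mir532) and with Mir188 (3.42-fold and 2.88-fold lower than Mir188). Overlap depends on the number of reads as well as on the change in ratio. The log2 ratio of Mir501 to Mir500 changed by 0.28 from replicate 1 to replicate 2, and its intervals overlapped. Those of Mir188 and Mir532 to Mir501 changed less, by -0.25 and -0.19, and their intervals lay apart. The pairs also share genes, and overlap was not counted for pairs of other genes. Whether the cluster's ratios repeat better or worse than others was therefore not tested. With 2 libraries in 1 group no test of the members' ratios over samples was made.

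**Figure D3:**
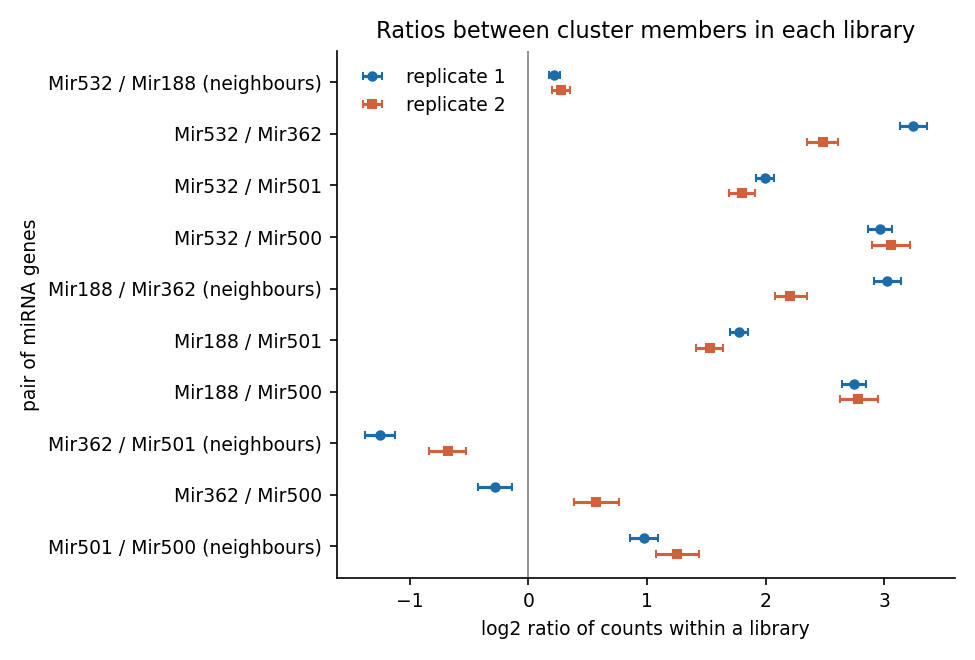
Log2 ratio of counts for the 10 pairs of cluster members, each library shown separately, with exact 95% intervals (counting error only); the vertical line marks equal counts. The 4 pairs with Mir362 are the most displaced between replicate 1 (circles) and replicate 2 (squares), and Mir362 / Mir500 crosses the line.

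The members were then compared between the libraries on a common scale, with an exact two-sided binomial test on every gene whose counts summed to 10 or more, given library sizes scaled by TMM, with Benjamini-Hochberg adjustment over all 404 genes tested. This test asks whether reads differ between these 2 libraries by more than counting error. It called 169 of the 404 genes (41.8%), and 138 of the 187 genes of at least 100 CPM (73.8%), the level class of all 5 members. Of the 5 members 4 passed an adjusted p of 0.05, a share close to that class. Higher in replicate 2 were 1 member, 29.4% of the genes of at least 100 CPM and 17.8% of all genes tested. Higher in replicate 1 were 3 members, 44.4% of that class and 24.0% of all genes tested.

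Mir362 was the member higher in replicate 2. Its log2 ratio, replicate 2 over replicate 1, was 0.63 on TMM-scaled values with 1 CPM added, with a counting standard error of 0.08 (exact binomial test, adjusted p = 1.07e-13). Of the 187 genes of at least 100 CPM this was the log2 ratio of rank 2 from the top, and 4 of them, Mir362 included, lay as far from 0 in either direction. By mean level Mir362 was of rank 164, toward the low end of that class. Of all 404 genes tested its log2 ratio was of rank 22 from the top, and 10.9% of them lay as far from 0.

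The upstream pair moved little and in the other direction. The log2 ratio was -0.18 for Mir188 (exact binomial test, adjusted p = 2.47e-07) and -0.13 for Mir532 (adjusted p = 7.86e-05, exact binomial test). With unscaled library totals, Mir532 stood at -0.04 and no longer passed (exact binomial test, adjusted p = 0.300).

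The last members gave the weakest calls. Mir500, at a log2 ratio of -0.22, was also lower in replicate 2 (exact binomial test, adjusted p = 0.0325), and with library totals it stood at -0.13 and did not pass (adjusted p = 0.266, exact binomial test). Without a filter on counts, the adjusted p of Mir500 was 0.0537 (exact binomial test). Mir501 had a log2 ratio of 0.06 and did not pass (exact binomial test, adjusted p = 0.465), but passed at 0.15 with library totals (exact binomial test, adjusted p = 0.0289).

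When the spread between the libraries over all genes was added to counting error, as edgeR's common dispersion of 0.0335 estimated from the same 2 libraries, a coefficient of variation of 18.3%, no member passed (0 of 5, each at an adjusted p of 1 in an exact beta-binomial test) and 1 of 404 genes did (0.248%). This dispersion was estimated from the differences under test, so a typical gene could hardly pass, and these counts do not show that the libraries agree. The median log2 ratio of the members was -0.13 and that of all genes tested -0.03. In size without regard to sign, the medians were 0.18 and 0.23, and 0.17 for genes of at least 100 CPM. Several marker lists also differed between the libraries. After TMM scaling the log2 ratio was -0.47 for endothelium, -0.45 for smooth muscle and -0.43 for erythroid cells. The smooth muscle value was that of Mir143 (-0.46), while Mir145a stood at -0.03. For cardiac and striated muscle it was -2.78 (-0.71 without Mir208a, a choice made after seeing the data). For the hepatocyte miRNA Mir122 it was 0.70, the direction of Mir362, at 22.4 and 39.5 CPM. Mesenchyme shared this direction, with a log2 ratio of 0.09 for the list and a median of 0.30 over its 4 genes. By counting error alone (exact binomial test) all 4 passed on that side, as did 17.8% of all genes tested. Mir214, the leading gene of the list at 8920 CPM, had a log2 ratio of 0.07, and Mir199a-1 had only 15 and 26 counts. Epithelium (-0.07) and white blood cells (-0.15) had negative log2 ratios. Sequencing depth and collection day differed as well, and the part of any of these in the value of Mir362 was not tested.

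**Figure D4:**
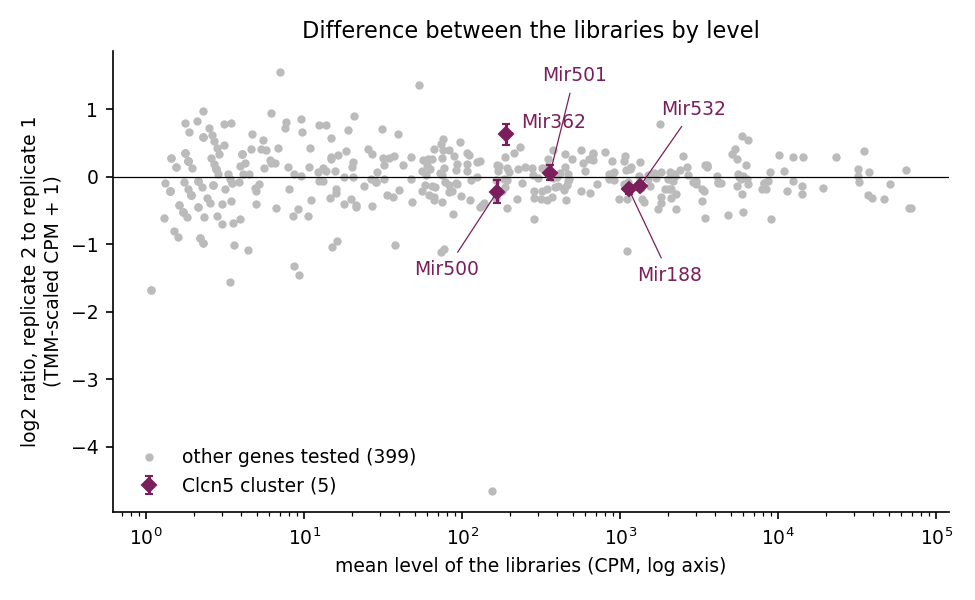
Log2 ratio of replicate 2 to replicate 1 (TMM-scaled CPM + 1) against mean level (CPM, log axis) for the 404 genes tested. Grey points are the 399 other genes, and diamonds are the Clcn5 cluster with 95% counting intervals. Mir362 stands at 0.63, apart from the other 4 members, which lie between -0.22 and 0.06.

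Because the cluster is X-linked, it was set beside the other X-linked miRNAs. The 120 X-linked genes in the table held 9.08% of counts in replicate 1 and 8.31% in replicate 2, and 35 of them reached 10 counts in each library. The Clcn5 cluster held 3.51% of X-linked counts in replicate 1 (3.46% to 3.56%, exact) and 3.84% in replicate 2 (3.75% to 3.92%). By mean level Mir532 ranked 8 and Mir188 10 among the X-linked genes, Mir501 ranked 20, Mir362 24 and Mir500 26.

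The cluster stood below 2 of 4 other X-linked lists and above the remaining 2 in both libraries. The Mir322 cluster, whose miRNAs include relatives of miR-15 and miR-16 that restrain the cell cycle, had 19.5 times its counts in replicate 1 and 17.0 times in replicate 2. Its leading gene Mir322 stood at 46826 ± 5454 CPM (SD, n = 2). The miRNAs in introns of Huwe1, Mir98 and Mirlet7f-2, both of the let-7 family, exceeded the Clcn5 cluster by 3.22-fold and 3.12-fold, with Mir98 at 7892 ± 330 CPM. The Mir106a cluster, a relative of miR-17~92, stood at 0.519 and 0.636 times the Clcn5 cluster, with Mir106a at 668 ± 144 CPM. Mir221 and Mir222, which share a seed, stood at 0.229 and 0.283 times, with Mir221 at 495 ± 85.6 CPM. These ratios compare reads of different sequences and were not tested. Reads that map to several places were assigned to no gene, which can lower a list whose hairpins share sequence with others. For the Clcn5 cluster, 0 of 5 members share 20 nt with another annotated hairpin. Such sharing was not examined for the other lists, so the order of the lists holds for assigned reads only.

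**Figure D5:**
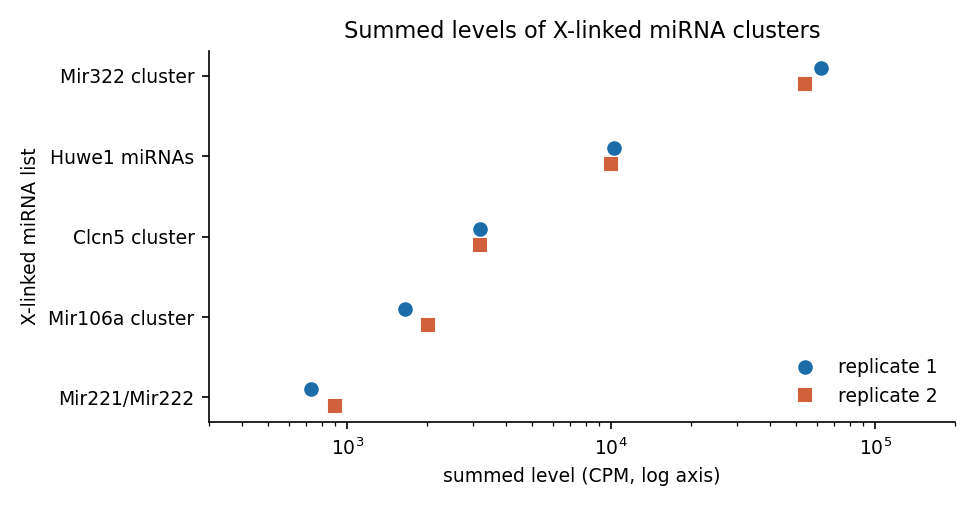
Summed level (CPM, log axis) of 5 X-linked miRNA lists in each library, with circles for replicate 1 and squares for replicate 2. The Clcn5 cluster, at 3187 and 3189 CPM, lies between the Huwe1 miRNAs and the Mir106a cluster.

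The summed level of each list also differed between the libraries. After TMM scaling the log2 ratio, replicate 2 over replicate 1, was -0.09 for the Clcn5 cluster, -0.28 for the Mir322 cluster, -0.13 for the Huwe1 miRNAs, 0.20 for the Mir106a cluster and 0.21 for Mir221 and Mir222. Within the Clcn5 sum, the TMM-scaled log2 ratio of Mir362 was above 0 and those of Mir532 and Mir188 were below it. TMM scaling itself shifted every log2 ratio by -0.09 against library totals, under which the Clcn5 sum stood at 0.00062.

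The genes closest to Mir532 in level over the 2 libraries, by Euclidean distance of log2(CPM + 1), were Mir28a, Mir92b and Mir674. Mir28a stood at 1381 and 1313 CPM (distance 0.02), Mir92b at 1361 and 1286 CPM (0.04) and Mir674 at 1275 and 1372 CPM (0.11). They lie on chromosomes 16, 3 and 2. With 2 libraries of 1 group this likeness describes their level only.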

How the data were processed

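For each library the authors deposited raw counts of whole numbers for each miRNA gene, as 3 columns: without regard to strand, on the gene's strand and on the opposite strand, judged from the values. Per the deposited readme they derive from mm10 alignments with GENCODE annotation M4. For the aligner, counter and trimming, the sources used here give no name. The 4 summary entries stayed out of library sizes and tests: unmapped (12.7% of reads in replicate 1, 11.7% in replicate 2), multimapping (32.9%, 33.1%), without a feature on either strand (2.63%, 2.44%) and ambiguous (0%). Of 1973 genes, 1894 matched GENCODE M21 and 79 did not. RefSeq sequences (GRCm38.p6) were matched by symbol for 5 of 5 members. The count of per-sample columns left unused for lack of a sample was 0.

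Gene-strand counts gave CPM. A quasi-likelihood fit has no residual degrees of freedom between 2 single libraries, so exact binomial tests on TMM-scaled sizes were used, and p-values measure only these libraries. The test was checked on simulated counts drawn with counting error alone. That check cannot show how the test behaves under the spread seen between these libraries. The beta-binomial alternative used edgeR's common dispersion. The members, lists and tests were chosen with earlier results of these data known. Named genes are the members, other miRNA genes in Clcn5 or within 10 kb, the leading gene of each X-linked list, the 3 genes nearest Mir532 in level, and seed partners with at least 10 counts in both libraries. The marker list of mesenchyme stood at 9078 and 10251 CPM, erythroid cells at 497 and 392, and white blood cells at 691 and 662. Software was R 4.3.3, edgeR 4.0.16, DESeq2 1.42.0 (size factors only), Python 3.11.15, scipy 1.17.1 and Biopython 1.88.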

Additional observations from a re-analysis of the deposited data

How the results depend on the processing

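The cluster sum of 3188 CPM became 3426 CPM with the most abundant gene left out of the denominator, 1844 CPM with multimapping and other mapped unassigned reads in it, and 3098 CPM with counts taken without regard to strand. It was 3187 to 3189 CPM with either replicate left out. The cluster's share of X-linked counts, 3.67%, became 7.95% without Mir322. The count of genes called between the libraries fell from 169 to 1 with the common dispersion added. Scaling moved the direction of calls: of those called, 42.6% were higher in replicate 2 with TMM, 63.3% with library totals and 36.3% with DESeq2 size factors, which shifted log2 ratios by -0.14 against library totals. Member calls were 4 of 5 with TMM, DESeq2 size factors, a minimum of 50 counts, either pseudocount and counts without regard to strand, 3 of 5 with library totals or no count filter, and 0 of 5 with the dispersion. No member's log2 ratio reversed (0) under these alternatives. No paired analysis was possible because the libraries form 1 group. Depth limits Mir500 and Mir362 most, with 371 and 552 counts in replicate 2.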
